A study of Homo sapiens with 12 samples.

Results

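The EGF receptor family and its ligands were followed as 10 genes of the deposited count table: the receptors EGFR, ERBB2 and ERBB3, the ligands EREG, AREG, BTC, HBEGF, TGFA and NRG1, and ERRFI1, an inhibitor of the receptors. They were found by matching the table's Ensembl identifiers to these symbols, and all 10 of the 10 were present among 63677 genes and passed the filter on low counts. RNA was sequenced from PANC-1 and MIA PaCa-2, established human pancreatic carcinoma lines. Each line received a negative control siRNA or siRNA against RBM3, an RNA-binding protein that is induced by cold, which gave 4 groups of 3 libraries: PANC-1 with RBM3 siRNA (replicates 1, 2 and 3), PANC-1 with control siRNA (1, 2 and 4), MIA PaCa-2 with RBM3 siRNA (1, 2 and 5) and MIA PaCa-2 with control siRNA (1, 2 and 4). In all groups the cells had been cultured for 72 h and were transfected with lipofectamine for 4.5 h at 25 nM siRNA in medium without serum, then left overnight in full medium. The study asked which transcripts depend on RBM3 in these lines.

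ERBB receptors are tyrosine kinases that signal as pairs. EGFR binds EGF, TGFA, AREG, EREG, BTC and HBEGF, ERBB3 binds neuregulins such as NRG1, and ERBB2 has no known ligand but is the favoured partner of the others. The ligands are made as membrane-bound precursors and released by ADAM proteases, and signalling through the ERK kinases induces several of them, so that the system can feed itself. ERRFI1, also called MIG6, is induced by the same signalling and blocks the receptor kinase domain. In carcinomas of the pancreas, these receptors and ligands are commonly produced by the tumour cells themselves.

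Total counts were between 14217185 and 39652502 per library, and a gene with a count of 0 could hold up to 3 counts, which is 0.0757 to 0.211 CPM (counts scaled to library size) depending on the library. Such limits and counting intervals cover counting error only. Levels below are CPM after TMM normalisation, a scaling of the library sizes, and errors are SD over 3 libraries. RBM3 itself was at 96.5, 195 and 83.0 CPM in PANC-1 with RBM3 siRNA, against 567, 426 and 436 CPM with control siRNA. The RBM3 siRNA libraries of MIA PaCa-2 had 44.4, 37.4 and 61.9 CPM of it, against 250, 277 and 207 CPM in the controls of that line. The groups did not overlap in either line; an exact permutation test (two-sided) gave p = 0.1 in each, as low as 3 against 3 libraries can go. EdgeR put the log2 fold change at -1.93 (SE 0.30) in PANC-1 and -2.35 (SE 0.31) in MIA PaCa-2, and after adjustment over all genes RBM3 passed in MIA PaCa-2 (adjusted p = 0.0426) but not in PANC-1 (adjusted p = 0.516). KRT8, KRT18 and KRT19, keratins of simple epithelium, were abundant in both lines, but EPCAM, CDH1 and KRT7 were at or below 0.832 CPM in every MIA PaCa-2 library. Of markers of other cells, INS and PECAM1 had no count in any library, CD14 was at 1.15 to 20.5 CPM, and the remaining ones of the 8 were at or below 0.476 CPM.

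One library stood apart by its content. PANC-1 RBM3 siRNA replicate 3 carried transcripts of MIA PaCa-2: over 17 genes chosen as at least 50 CPM in every MIA PaCa-2 library and at most 1 CPM in each other PANC-1 library, its median level was 38.6% of that in MIA PaCa-2 (quartiles 35.6% and 48.1%), while the selection kept it low in the remaining 5 libraries of PANC-1. Among those transcripts, COL1A2, which encodes a collagen chain, reached 441 CPM in it. The main comparisons that rest on this library are given with and without it. A further 2 PANC-1 libraries, control replicate 1 and RBM3 siRNA replicate 2, resembled each other across the siRNA groups and are described as a pair further on.

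**Figure D1:**
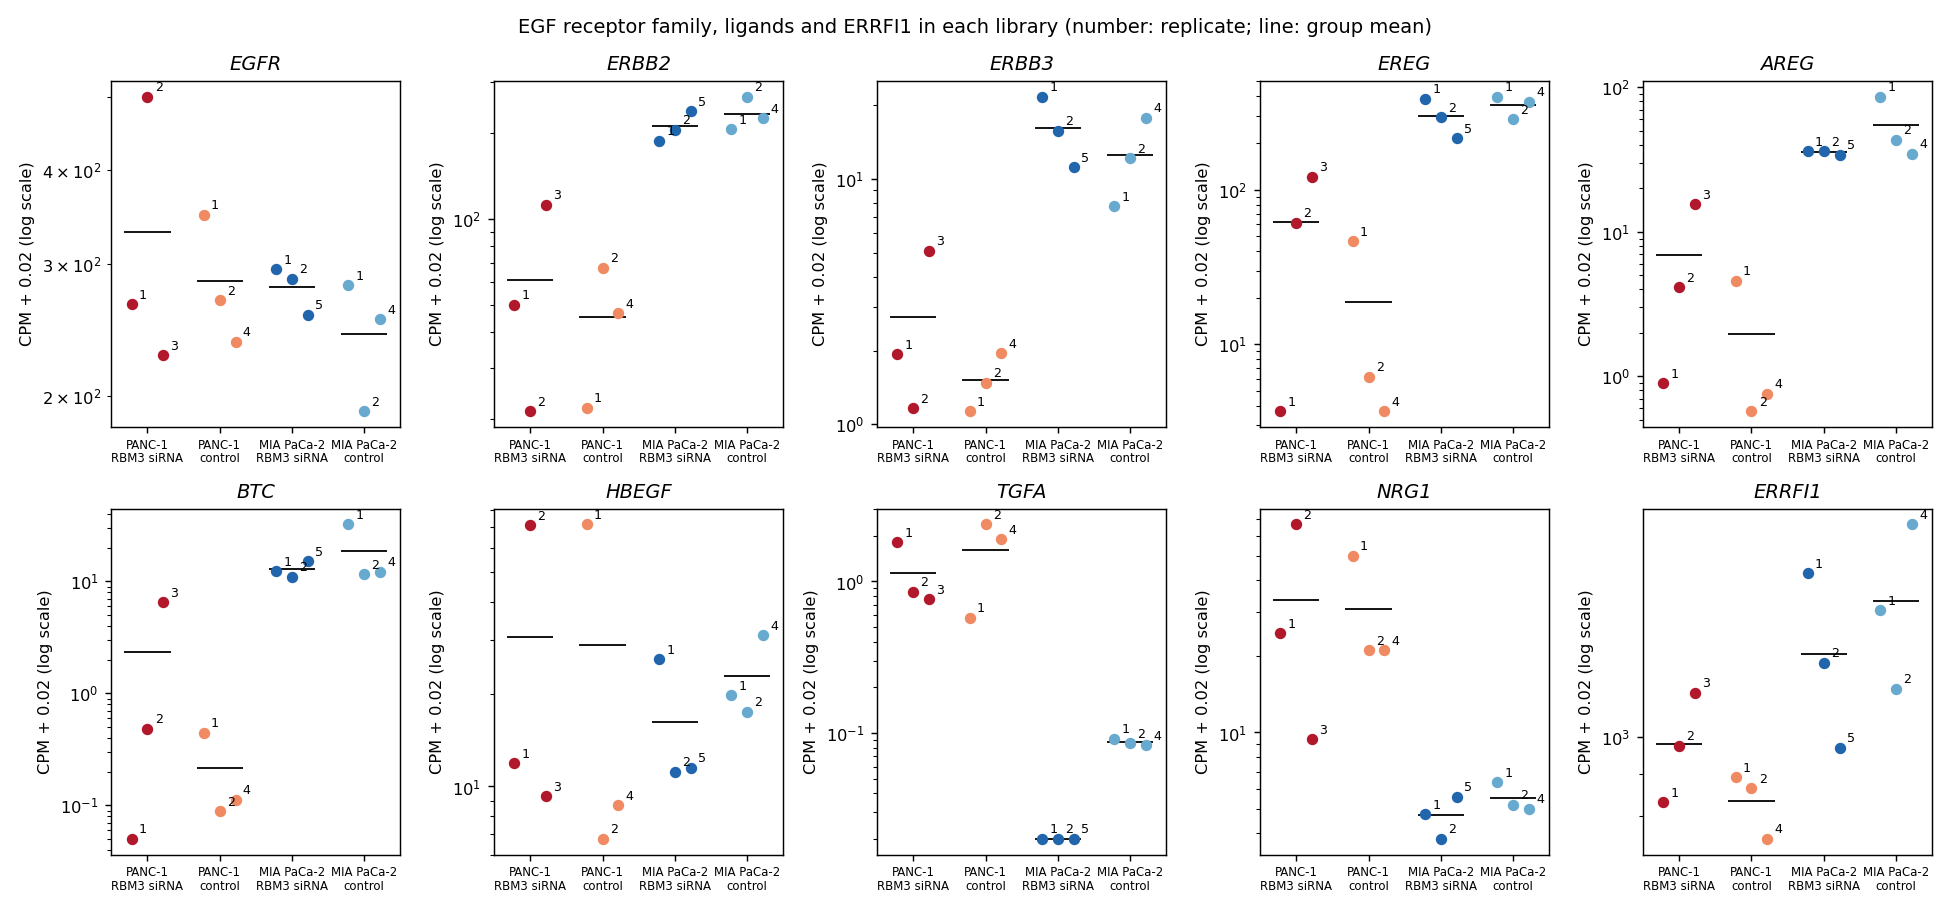
Normalised level of each of the 10 genes in each library, as CPM with 0.02 added on a log axis, by group; points are libraries with their replicate number, and the horizontal line is the group mean. EREG spans 3.68 to 121 CPM within PANC-1, against 214 to 398 CPM within MIA PaCa-2, and HBEGF is at about 71 CPM in PANC-1 RBM3 siRNA replicate 2 and control replicate 1.

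Per kilobase of exon, ERRFI1 was the most abundant of the 10 in every group and the receptors and ligands followed in an order that differed between the lines. In PANC-1 with control siRNA, EGFR came next at 22.7 ± 4.63 CPM per kb, followed by HBEGF at 9.60 ± 12.2, ERBB2 at 4.39 ± 2.22, EREG at 3.28 ± 4.19, NRG1 at 2.71 ± 1.47 and AREG at 1.19 ± 1.38 CPM per kb (SD, n = 3). TGFA, ERBB3 and BTC were at 0.323 ± 0.188, 0.166 ± 0.0457 and 0.0697 ± 0.0713 CPM per kb, the lowest of the 10. Below ERRFI1, each neighbour in that order overlapped the next over the 3 libraries. In MIA PaCa-2 with control siRNA, EREG led after ERRFI1 at 61.3 ± 10.3 CPM per kb, and AREG at 33.2 ± 16.7, ERBB2 at 22.5 ± 3.04 and EGFR at 19.3 ± 3.68 CPM per kb each overlapped the gene before. HBEGF at 7.57 ± 2.40 and BTC at 6.62 ± 4.17 CPM per kb overlapped each other and lay apart from EGFR, while ERBB3 at 1.39 ± 0.558, NRG1 at 0.486 ± 0.0656 and TGFA at 0.0134 ± 0.000863 CPM per kb were separate steps.

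Most of the 10 genes differed between the lines. Under control siRNA, PANC-1 had higher TGFA and NRG1 than MIA PaCa-2, and lower EREG, AREG, BTC, ERBB2, ERBB3 and ERRFI1, while EGFR and HBEGF did not pass the test. That is 2 of 10 called higher and 6 of 10 called lower by edgeR's quasi-likelihood F-test at an adjusted p of 0.05. Among all 17862 genes tested, 26% were called higher and 24.8% lower, so a call between these lines is common. The median log2 fold change of the 10, PANC-1 over MIA PaCa-2, was -1.58, and that of all genes 0.00. In these bulk libraries, fewer cells of a kind and less RNA per cell cannot be told apart. Nothing in the labels says that the replicates came from separate cultures; the p-values reflect the spread among these libraries alone, and that spread may be technical.

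EGFR, the receptor of most of these ligands, was at 349, 268 and 236 CPM in PANC-1 with control siRNA, against 281, 191 and 253 CPM in MIA PaCa-2 controls. The groups overlapped, and the log2 fold change was 0.24 (SE 0.27, edgeR adjusted p = 0.486). ERBB2, the partner receptor, was at 21.8, 67.5 and 46.7 CPM in PANC-1, against 206, 267 and 225 CPM in MIA PaCa-2. Every MIA PaCa-2 library was above every PANC-1 library, with a log2 fold change of -2.36 (SE 0.51, edgeR adjusted p = 0.00212). Its exons overlap those of MIEN1 and PGAP3 on the opposite strand by 571 and 194 bp in a GRCh38 annotation, and no strand setting is given in the sources used here, so some of its reads may be theirs. ERBB3, the neuregulin receptor with little kinase activity of its own, was at 1.11, 1.46 and 1.93 CPM in PANC-1, against 7.73, 12.1 and 17.8 CPM in MIA PaCa-2. It was low in all PANC-1 libraries, with a log2 fold change of -3.05 (SE 0.54, edgeR adjusted p = 0.000628).

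EREG, AREG and BTC, ligands of EGFR, are neighbours on chromosome 4 (EREG at 74365143 to 74388751, AREG at 74445134 to 74455009 and BTC at 74744759 to 74794686, GRCh38), with no protein-coding gene between them, and all of them were lower in PANC-1. EREG, epiregulin, was at 46.4, 6.17 and 3.68 CPM in PANC-1 with control siRNA, against 398, 285 and 369 CPM in MIA PaCa-2 controls. PANC-1 control replicate 1 was the high library of its group and still far under MIA PaCa-2; the log2 fold change was -4.22 (SE 1.08, edgeR adjusted p = 0.00602), and without that library it was -6.16. AREG, amphiregulin, was at 4.58, 0.555 and 0.737 CPM in PANC-1, against 86.2, 43.3 and 34.8 CPM in MIA PaCa-2, and its log2 fold change was -4.76 (SE 0.96, edgeR adjusted p = 0.00149). The same PANC-1 library was the high one, and without it the value was -6.38 (adjusted p = 0.000985). The hg19 build used for the counting is known to hold a near-identical copy of AREG, so its reads may be split and its level is uncertain. BTC, betacellulin, was at 0.428, 0.0694 and 0.0921 CPM in PANC-1 (13 counts in all), against 32.2, 11.5 and 12.2 CPM in MIA PaCa-2. The log2 fold change of BTC was -6.43 (SE 1.35, edgeR adjusted p = 0.00192), and -7.75 (adjusted p = 0.00614) without PANC-1 control replicate 1.

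TGFA and NRG1 went the other way. TGFA, transforming growth factor alpha on chromosome 2, had 13, 34 and 41 counts in PANC-1 with control siRNA, or 0.556, 2.36 and 1.89 CPM, against 3, 1 and 1 counts in MIA PaCa-2. Both lines had little of it, and the ratio was 21.6 (95% exact counting interval 8.93 to 68.3), with an edgeR adjusted p of 0.000745. NRG1, the ligand of ERBB3, was at 49.96, 21.2 and 21.1 CPM in PANC-1, against 6.35, 5.17 and 4.98 CPM in MIA PaCa-2. All PANC-1 libraries were above all MIA PaCa-2 libraries, and the log2 fold change was 2.48 (SE 0.58, edgeR adjusted p = 0.00358). PANC-1 thus held more mRNA of the ligand NRG1 and less of its receptor ERBB3 than MIA PaCa-2. The fourth receptor, ERBB4, which also binds neuregulins, was at 0.434 to 1.96 CPM over all libraries.

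HBEGF, the heparin-binding ligand, varied widely within PANC-1 controls, at 71.5, 6.73 and 8.66 CPM, against 19.9, 17.5 and 31.1 CPM in MIA PaCa-2 controls. One PANC-1 library was above all MIA PaCa-2 libraries and the others were below them. Its log2 fold change was 0.35 (SE 0.88, edgeR adjusted p = 0.762), and it was -1.56 without PANC-1 control replicate 1. ERRFI1, the receptor inhibitor, was at 892, 866 and 752 CPM in PANC-1, against 1423, 1142 and 1807 CPM in MIA PaCa-2. Its groups did not overlap, with a log2 fold change of -0.80 (SE 0.21, edgeR adjusted p = 0.00668). In all, TGFA and NRG1 lay above, and ERBB2, ERBB3, EREG, AREG, BTC and ERRFI1 below, without overlap of single libraries, which holds for 31.4% and 30.1% of all genes tested.

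Under RBM3 siRNA the lines were again apart in the same directions, but fewer of the differences passed. TGFA and NRG1 were called higher and ERBB2, ERBB3 and AREG lower, 2 and 3 of 10, where 24.2% and 19.3% of all genes were called. NRG1 was at 24.7, 66.4 and 9.40 CPM in PANC-1, against 4.74, 3.78 and 5.55 CPM in MIA PaCa-2, a log2 fold change of 2.84 (SE 0.59, edgeR adjusted p = 0.00243). TGFA had 59, 27 and 24 counts in PANC-1, against 0 counts in all 3 MIA PaCa-2 libraries, and was at least 29.1-fold higher if MIA PaCa-2 is set to 3 counts over the group (edgeR adjusted p = 0.000339). Both lay above MIA PaCa-2 in every PANC-1 library. NRG1 was at 3.29 (SE 0.45, edgeR adjusted p = 6.2e-05) without PANC-1 RBM3 siRNA replicate 3 and at 1.86 (SE 0.44, adjusted p = 0.00716) without replicate 2, and TGFA kept its call without either.

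ERBB2 was at 50.04, 21.2 and 112 CPM in PANC-1, against 188, 205 and 238 CPM in MIA PaCa-2, a log2 fold change of -1.78 (SE 0.49, edgeR adjusted p = 0.0123). ERBB3 was at 1.91, 1.15 and 5.07 CPM in PANC-1, against 21.6, 15.7 and 11.2 CPM in MIA PaCa-2, a log2 fold change of -2.58 (SE 0.51, edgeR adjusted p = 0.00197). Replicate 3 was the high PANC-1 library for both receptors. Without PANC-1 RBM3 siRNA replicate 1 the adjusted p of ERBB2 was 0.0516, and without replicate 3 the log2 fold changes were -2.57 for ERBB2 and -3.41 for ERBB3.

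EREG was at 3.70, 61.2 and 121 CPM in PANC-1 with RBM3 siRNA, against 385, 293 and 214 CPM in MIA PaCa-2 given the same siRNA. AREG was at 0.879, 4.12 and 15.6 CPM in PANC-1, against 36.0, 36.2 and 34.1 CPM in MIA PaCa-2. BTC was at 0.0303, 0.465 and 6.53 CPM in PANC-1, against 12.4, 10.97 and 15.1 CPM in MIA PaCa-2. Each of these ligands was low in PANC-1 replicate 1, intermediate in replicate 2 and high in replicate 3, and every PANC-1 library was below every MIA PaCa-2 library. The log2 fold changes were -2.26 for EREG (SE 0.98, edgeR adjusted p = 0.0792), -2.37 for AREG (SE 0.85, adjusted p = 0.0389) and -2.45 for BTC (SE 1.04, adjusted p = 0.0728). Without replicate 3 all of them passed, at -3.19 (adjusted p = 0.0283), -3.82 (adjusted p = 0.00198) and -5.67 (adjusted p = 0.000107). AREG lost its call, with adjusted p-values of 0.0522 to 0.113, on leaving out MIA PaCa-2 control replicate 2 or 4, any MIA PaCa-2 RBM3 siRNA library, or PANC-1 RBM3 siRNA replicate 1 or 2, and was at 0.0585 when the 2 groups were fitted alone. EREG gained one without PANC-1 control replicate 1 (adjusted p = 0.0376).

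EGFR, at 265, 501 and 226 CPM in PANC-1, against 295, 286 and 256 CPM in MIA PaCa-2, and HBEGF, at 11.9, 71.0 and 9.28 CPM, against 26.0, 11.1 and 11.5 CPM, overlapped between the lines. Their log2 fold changes were 0.24 (SE 0.27, edgeR adjusted p = 0.479) and 0.92 (SE 0.89, adjusted p = 0.417). ERRFI1 was at 833, 975 and 1130 CPM in PANC-1, against 1576, 1229 and 969 CPM in MIA PaCa-2, where the highest PANC-1 library overlapped the lowest MIA PaCa-2 library, with a log2 fold change of -0.36 (SE 0.21, edgeR adjusted p = 0.172). Without PANC-1 RBM3 siRNA replicate 3 EGFR was at 0.46, HBEGF at 1.35 and ERRFI1 at -0.48, and none passed, and without replicate 2 EGFR was at -0.18 and HBEGF at -0.62. Without overlap were 2 members above and 5 below, against 28.5% and 25.9% of all genes. In total, 5 members were called lower without PANC-1 RBM3 siRNA replicate 3, beside 4405 of all 18422 genes tested in that fit. Without replicate 1 only 1 member, ERBB3, was called lower, beside 1788 of 18375 genes.

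**Figure D2:**
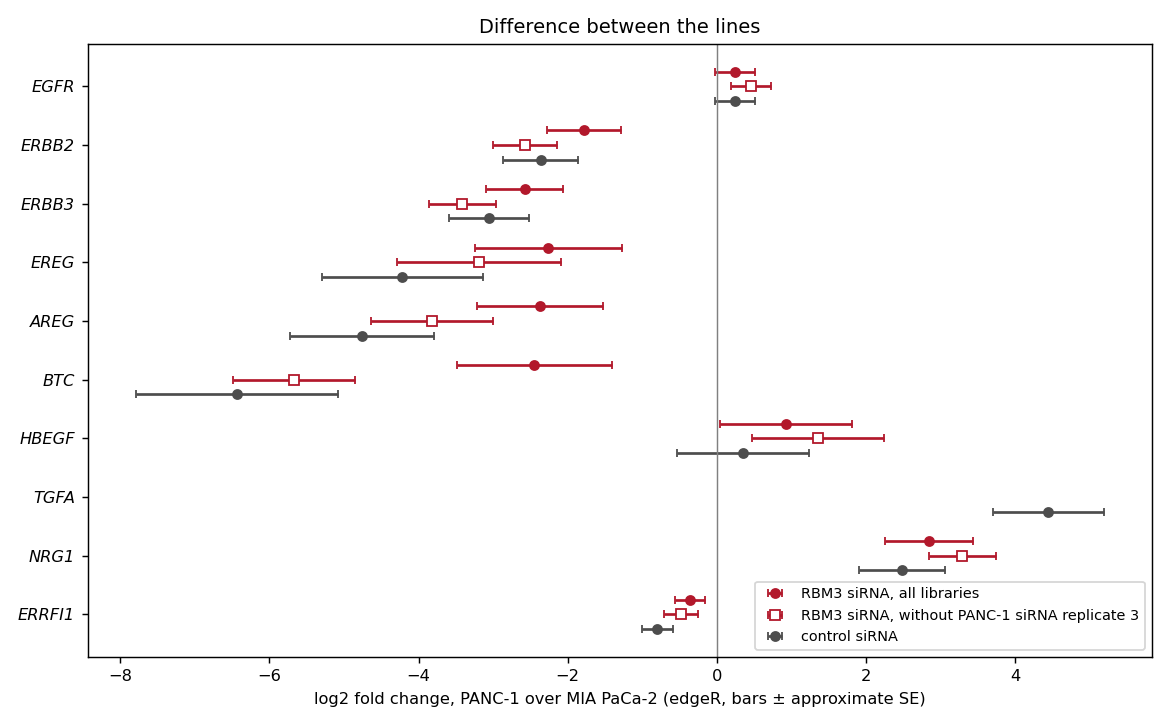
Difference between the lines for each gene as the log2 fold change, PANC-1 over MIA PaCa-2, from edgeR; bars are ± the approximate SE, filled red circles are all libraries under RBM3 siRNA, open red squares leave out PANC-1 RBM3 siRNA replicate 3, and grey circles are control siRNA. BTC moves to -5.67 without that library, against -2.45 with it and -6.43 under control siRNA; TGFA is not drawn under RBM3 siRNA because MIA PaCa-2 had no count.

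The member levels in PANC-1 RBM3 siRNA replicate 3 can be set beside what its MIA PaCa-2 transcripts alone would carry, taken as 38.6% of the mean MIA PaCa-2 level. For EREG this product was 125 CPM and the library had 121 CPM, for AREG it was 17.4 CPM beside 15.6 CPM, for BTC 6.07 CPM beside 6.53 CPM, and for ERBB3 5.54 CPM beside 5.07 CPM. For these 4 genes the product was near the whole level in that library. ERBB2, at 112 CPM beside a product of 85.5 CPM, and HBEGF, at 9.28 CPM beside 7.54 CPM, were somewhat above it. EGFR, NRG1, ERRFI1 and TGFA, at 226, 9.40, 1130 and 0.742 CPM, were well above their products of 100, 1.97, 524 and 0.0129 CPM. The part that these transcripts have in the siRNA comparisons of PANC-1 was not tested beyond leaving the library out.

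RBM3 siRNA itself moved none of the 10 genes past the threshold in either line. In MIA PaCa-2, 0 of 10 members were called by edgeR, where 0.0112% of all genes were called, and 1 member, TGFA, had an unadjusted p under 0.05, as 2.94% of all genes did. DESeq2 and limma-voom also called no member in either line, though DESeq2 gives no adjusted p for HBEGF and BTC. EREG averaged 298 ± 85.5 CPM with RBM3 siRNA and 351 ± 58.7 CPM with control siRNA, AREG 35.4 ± 1.16 and 54.8 ± 27.5 CPM, BTC 12.8 ± 2.12 and 18.6 ± 11.8 CPM, and HBEGF 16.2 ± 8.46 and 22.8 ± 7.25 CPM (SD, n = 3 each). The groups overlapped for all of these ligands, with log2 fold changes of -0.24 (SE 0.94), -0.63 (SE 0.80), -0.55 (SE 0.97) and -0.49 (SE 0.89). MIA PaCa-2 control replicate 1 was the highest library of its line for AREG and BTC.

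EGFR averaged 279 ± 20.2 CPM with RBM3 siRNA and 241 ± 46.1 CPM with control siRNA in MIA PaCa-2, a log2 fold change of 0.21 (SE 0.27). ERBB2 averaged 210 ± 25.7 and 233 ± 31.3 CPM, ERBB3 16.2 ± 5.25 and 12.5 ± 5.04 CPM, NRG1 4.69 ± 0.888 and 5.50 ± 0.743 CPM, and ERRFI1 1258 ± 304 and 1457 ± 334 CPM (SD, n = 3 each). Their log2 fold changes were -0.14 (SE 0.48), 0.37 (SE 0.48), -0.24 (SE 0.56) and -0.21 (SE 0.21), all within the spread of the libraries. TGFA, with 0 counts under RBM3 siRNA and 3, 1 and 1 counts under control siRNA, was the 1 member without overlap. Of all genes, 3.63% lay lower and 4.41% higher without overlap. With the RBM3 siRNA group set to 3 counts, the level of TGFA would be 0.567 times that of the controls. That value takes the 5 control counts as exact, so it is not an upper limit.

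In PANC-1, 0 of 10 members were called, as was 0% of all genes, and 1 member, BTC, had an unadjusted p under 0.05 (0.0209), as 4.12% of all genes did. The lowest adjusted p among the members was 0.9997. EREG averaged 62.1 ± 58.9 CPM with RBM3 siRNA and 18.7 ± 24.0 CPM with control siRNA, AREG 6.86 ± 7.73 and 1.96 ± 2.27 CPM, and BTC 2.34 ± 3.63 and 0.196 ± 0.201 CPM (SD, n = 3 each). The spread was as large as the means, and the groups overlapped. Their log2 fold changes were 1.72 (SE 0.98), 1.76 (SE 0.88) and 3.44 (SE 1.30), and without RBM3 siRNA replicate 3 they were 0.78 (SE 0.96), 0.29 (SE 0.76) and 0.19 (SE 0.99). Without control replicate 1, the high library of the controls, they were 3.68 (SE 1.02), 3.39 (SE 1.01) and 4.75 (SE 1.83), and none passed. With no filter on low counts BTC was called higher, at 3.46 (edgeR adjusted p = 0.0159), with all libraries included.

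HBEGF averaged 30.7 ± 34.9 CPM with RBM3 siRNA and 28.97 ± 36.9 CPM with control siRNA in PANC-1, and NRG1 33.5 ± 29.5 and 30.8 ± 16.6 CPM (SD, n = 3 each). Each group held 1 library far above the rest, and the log2 fold changes were 0.08 (SE 0.88) and 0.12 (SE 0.54). They turned with those libraries: without control replicate 1 they were 2.00 (SE 0.80) for HBEGF and 0.66 (SE 0.58) for NRG1, and without RBM3 siRNA replicate 2 they were -1.48 (SE 0.83) and -0.88 (SE 0.44). EGFR averaged 331 ± 149 and 284 ± 58.0 CPM, ERBB2 61.1 ± 46.4 and 45.3 ± 22.9 CPM, ERBB3 2.71 ± 2.08 and 1.501 ± 0.413 CPM, TGFA 1.12 ± 0.578 and 1.60 ± 0.935 CPM, and ERRFI1 979 ± 148 and 836 ± 74.7 CPM. The log2 fold change was 0.22 (SE 0.27) for EGFR, 0.43 (SE 0.48) for ERBB2, 0.85 (SE 0.52) for ERBB3, -0.49 (SE 0.54) for TGFA and 0.23 (SE 0.21) for ERRFI1. No member was free of overlap between the groups, where 3.75% of all genes lay higher and 2.77% lower, nor without RBM3 siRNA replicate 3, where 6.68% and 5.71% did. Without RBM3 siRNA replicate 3, ERBB2 was at -0.37 (SE 0.40), ERBB3 at 0.01 (SE 0.43), EGFR at 0.42 (SE 0.26), HBEGF at 0.51 (SE 0.88), NRG1 at 0.56 (SE 0.43), TGFA at -0.28 (SE 0.58) and ERRFI1 at 0.10 (SE 0.22). EGFR was at -0.23 (SE 0.21) without RBM3 siRNA replicate 2.

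The responses of the lines to RBM3 siRNA were also compared directly, as PANC-1 minus MIA PaCa-2. EdgeR called 0 of 10 members, as it called 0% of all genes, and 1 member, BTC, had an unadjusted p under 0.05 (0.0305), as 2.98% of all genes did. Neither DESeq2 nor limma-voom called a member, though DESeq2 gave no adjusted p for HBEGF and BTC here either. The difference was 3.98 (SE 1.63) on the log2 scale for BTC, and 0.76 (SE 1.12) without PANC-1 RBM3 siRNA replicate 3. The SE of a PANC-1 response was 0.21 for ERRFI1 and 0.27 for EGFR, 0.48 to 0.54 for ERBB2, ERBB3, TGFA and NRG1, and 0.88 to 1.30 for HBEGF, AREG, EREG and BTC, so a change in the last 4 had to be larger to be detectable here.

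**Figure D3:**
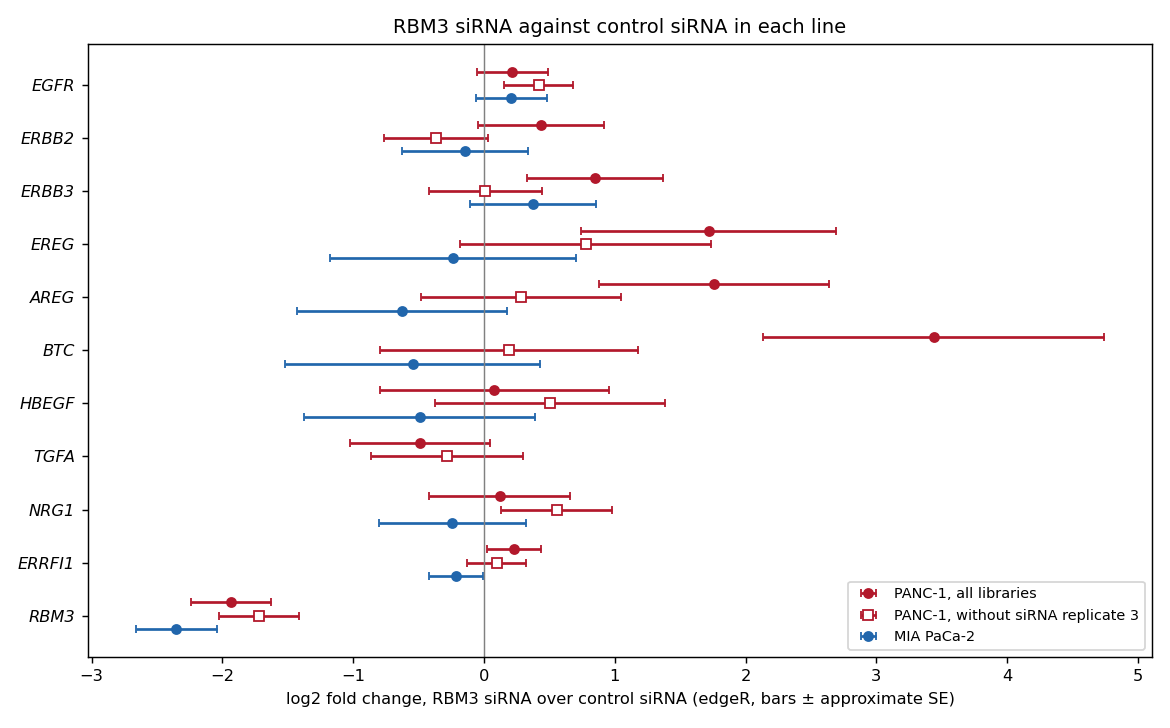
Response to RBM3 siRNA as the log2 fold change over control siRNA from edgeR, with bars of ± the approximate SE, for the 10 genes and RBM3; filled red circles are PANC-1 with all libraries, open red squares PANC-1 without RBM3 siRNA replicate 3, and blue circles MIA PaCa-2. RBM3 is at -1.93 in PANC-1 and -2.35 in MIA PaCa-2, while BTC in PANC-1 moves between 3.44 and 0.19; TGFA is not drawn in MIA PaCa-2, where the RBM3 siRNA libraries had no count.

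The variation within PANC-1 that runs across the siRNA groups lies between control replicate 1 and RBM3 siRNA replicate 2 on the one hand, which had 23993638 and 33341322 counts in total, and the other 4 libraries, with 14217185 to 32564458 counts, on the other. This pair was chosen with earlier results of these data known, so its levels are given as a description, without a test. HBEGF was at 71.5 and 71.0 CPM in the pair, against 6.73 to 11.9 CPM in the other 4 PANC-1 libraries, a ratio of means of 7.80. NRG1 was at 49.96 and 66.4 CPM, against 9.40 to 24.7 CPM, a ratio of 3.05, and EGFR was at 349 and 501 CPM, against 226 to 268 CPM, a ratio of 1.71. These 3 of 10 members were above all other PANC-1 libraries in both, as were 19.7% of all genes tested. ERBB2, at 21.8 and 21.2 CPM, against 46.7 to 112 CPM, and ERBB3, at 1.11 and 1.15 CPM, against 1.46 to 5.07 CPM, were below all others, 2 of 10 members beside 21% of all genes.

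RBM3 siRNA replicate 3, with its MIA PaCa-2 transcripts, is 1 of the other 4, and without it EREG, AREG and BTC, the members on chromosome 4, stand out. EREG was then at 46.4 and 61.2 CPM in the pair, against 3.68 to 6.17 CPM in the other 3, a ratio of 11.9. AREG was at 4.58 and 4.12 CPM, against 0.555 to 0.879 CPM, a ratio of 6.01, and BTC at 0.428 and 0.465 CPM (10 and 15 counts), against 0.0303 to 0.0921 CPM (1 to 2 counts), a ratio of 6.98. These ligands were thus several times higher in both libraries of the pair, though each stayed below every MIA PaCa-2 library. ERRFI1, at 892 and 975 CPM, against 752 to 866 CPM, had a ratio of 1.14, and TGFA, at 0.556 and 0.837 CPM, against 1.79 to 2.36 CPM, a ratio of 0.346. With that library left out, 7 members lay above and 3 below, so that all 10 were outside the range of the others, beside 25.3% and 27.3% of all genes.

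Without RBM3 siRNA replicate 3, EREG, AREG and HBEGF were the ligands with the largest ratios in the pair other than the sparsely counted BTC. Their promoters are shown so that the sequence can be read beside these values. They are RefSeq windows of GRCh38.p14 from 250 bases before to 50 after the start of the gene, 5′ to 3′ on the strand of the gene, at chr4:74364895-74365194 on the plus strand for EREG, chr4:74444886-74445185 on the plus strand for AREG and chr5:140346554-140346853 on the minus strand for HBEGF. Capitals mark matches to the motifs searched on both strands.
EREG: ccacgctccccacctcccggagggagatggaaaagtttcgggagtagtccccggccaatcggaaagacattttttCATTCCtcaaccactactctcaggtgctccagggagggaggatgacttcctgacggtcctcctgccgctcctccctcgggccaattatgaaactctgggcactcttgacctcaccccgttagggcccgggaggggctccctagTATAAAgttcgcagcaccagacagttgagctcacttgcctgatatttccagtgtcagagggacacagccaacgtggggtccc
AREG: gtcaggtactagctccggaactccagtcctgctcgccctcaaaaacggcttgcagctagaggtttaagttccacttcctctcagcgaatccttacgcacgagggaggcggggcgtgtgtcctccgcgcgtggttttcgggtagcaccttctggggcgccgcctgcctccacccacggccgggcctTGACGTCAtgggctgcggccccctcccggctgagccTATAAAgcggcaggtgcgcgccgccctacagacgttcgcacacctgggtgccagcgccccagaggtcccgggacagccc
HBEGF: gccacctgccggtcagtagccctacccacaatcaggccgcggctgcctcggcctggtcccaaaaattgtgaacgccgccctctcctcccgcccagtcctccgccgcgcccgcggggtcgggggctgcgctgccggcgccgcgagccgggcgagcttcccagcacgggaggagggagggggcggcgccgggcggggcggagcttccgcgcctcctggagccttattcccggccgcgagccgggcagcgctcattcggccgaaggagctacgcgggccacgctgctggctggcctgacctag
The motifs were TGANTCA, bound by AP-1 factors such as FOSL1, found in 7.71% of 35116 RefSeq promoter windows of this length, TGACGTCA, the cAMP response element, in 1.85%, GGAATG, bound by TEAD factors, in 14%, and TATAAA, the TATA box, in 11.5%. No match overlapped another. EREG held the TEAD letters on the opposite strand and a TATA box starting 32 bases before the start of the gene, AREG a cAMP response element 65 bases and a TATA box 29 bases before it, and HBEGF none of the 4. A match is a description of letters, not a site in use.

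**Figure D4:**
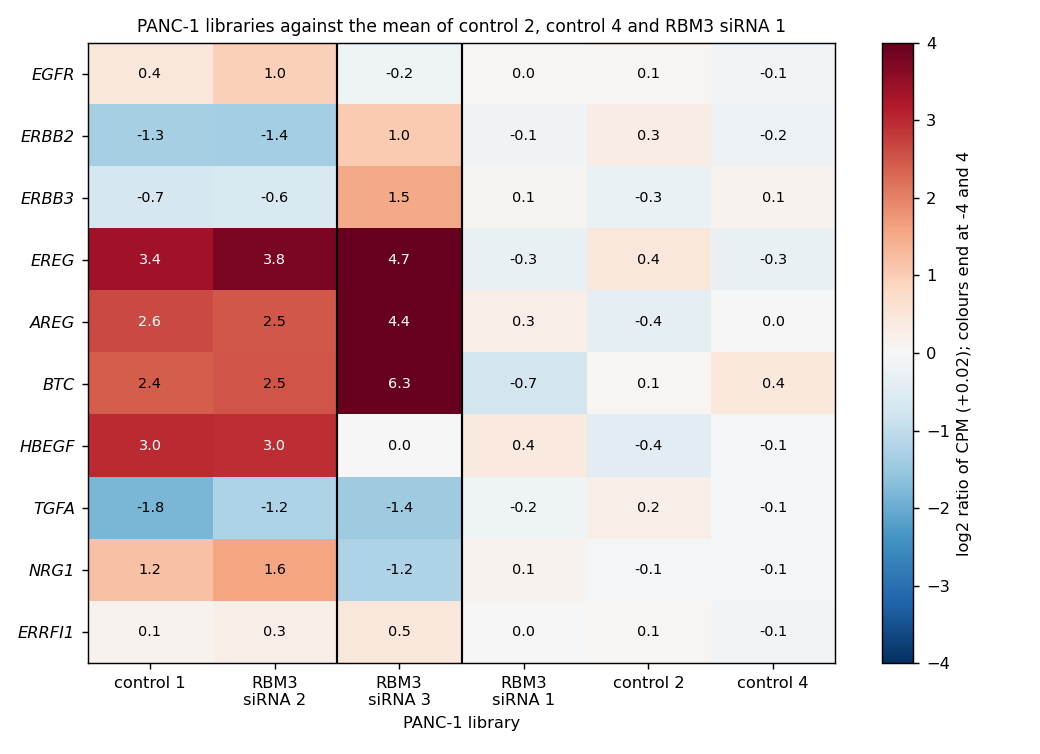
Level of each gene in each PANC-1 library as the log2 ratio of CPM (0.02 added) to the mean of RBM3 siRNA replicate 1 and control replicates 2 and 4, red for higher and blue for lower, with colours ending at -4 and 4; black lines set off the pair on the left and RBM3 siRNA replicate 3. The pair is high for EREG, AREG, BTC, HBEGF and NRG1 and low for ERBB2, ERBB3 and TGFA. RBM3 siRNA replicate 3 is high for EREG, AREG and BTC without HBEGF. It is also higher for ERBB2 (1.03) and ERBB3 (1.51) and lower for TGFA (-1.41) and NRG1 (-1.25).

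A list of 20 genes known to be induced by EGF receptor signalling in epithelial cells, of which 19 were tested, was read in the same libraries. Of them, 10 of 19 were above all other PANC-1 libraries in both libraries of the pair and 0 below, beside 19.7% and 21% of all genes. Without RBM3 siRNA replicate 3 the number above was 13, beside 25.3% of all genes. Their median log2 ratio was 0.60, and that of all genes -0.07. LIF, a cytokine, was at 192 and 184 CPM in the pair, against 51.0 to 62.7 CPM in the other 4 libraries. DUSP5, a phosphatase of nuclear ERK, was at 168 and 170 CPM, against 46.7 to 55.0 CPM. FOSL1, a subunit of AP-1, was at 709 and 584 CPM, against 213 to 427 CPM. FOS, EGR1, MYC and DUSP6 overlapped. The pathway lists, like the pair, were chosen with earlier results of these data known, so their counts are given as a description. The genes named here, like those of the next sentences, were picked after their values were seen.

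Of 23 negative regulators and turnover genes of the receptors, 9 were above and 2 below in the pair, beside 19.7% and 21% of all genes. Without RBM3 siRNA replicate 3 they were 10 and 4, beside 25.3% and 27.3%. SPRY4, an inhibitor of receptor tyrosine kinase signalling, was at 287 and 367 CPM, against 84.6 to 278 CPM, and CBL, the ubiquitin ligase that sends EGFR to degradation, at 216 and 330 CPM, against 127 to 208 CPM. Of 17 adaptors and first signalling steps 2 were above and 5 below, and of 10 genes of ligand shedding 3 and 3. Of 2 other receptors and ligands 0 were above and 1 below. Without RBM3 siRNA replicate 3 the adaptors had 2 above and 7 below and the shedding genes 5 and 3. The other receptors and ligands then had 0 and 2, all beside 25.3% and 27.3% of all genes. The markers of cell state were read in the same way. CDH1, E-cadherin, was at 3.59 and 3.66 CPM in the pair, against 4.61 to 19.2 CPM, and KRT19 at 953 and 759 CPM, against 1151 to 1913 CPM. Of the 6 markers of epithelial cells, these 2 were below and 0 above all others, beside the 21% and 19.7% of all genes, and without RBM3 siRNA replicate 3 5 were below, beside 27.3%. Of the 4 mesenchymal markers 1, ZEB1 at 50.4 and 71.7 CPM, against 37.3 to 45.3 CPM, was above and 0 below, and without that library 1 was above and 1, CDH2, below. RBM3 was at 567 and 195 CPM in the pair, 1 control and 1 RBM3 siRNA library, and overlapped the others. What sets the pair apart was not tested.

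Among the 10 genes, the ligands EREG, BTC, AREG and HBEGF varied most within a line over the 12 libraries. The SD of the log2 level around the mean of the line was 1.53 for EREG, 1.52 for BTC, 1.28 for AREG and 1.13 for HBEGF, where the median gene had 0.34. It was 0.70 for NRG1, 0.64 for ERBB2, 0.63 for ERBB3 and 0.63 for TGFA, and at or below the median gene for EGFR (0.33) and ERRFI1 (0.26). The variation of EREG was in PANC-1, with an SD of 2.24, against 0.34 in MIA PaCa-2. Without PANC-1 RBM3 siRNA replicate 3, the SD was 1.28 for EREG, 1.14 for HBEGF, 0.94 for AREG and 0.79 for BTC.

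The genes most like EREG, BTC and AREG were sought among 12095 genes, by the mean absolute difference of the log2 deviations from the mean of the line over the 12 libraries. Nearest to EREG were CXCL8, at a distance of 0.25, CALD1, at 0.42, and AREG, at 0.47. Nearest to BTC were DDR2, FERMT1 and CFAP299, at 0.30 to 0.32, and nearest to AREG were SERPINB8, MYH16 and FERMT1, at 0.23 to 0.28. CXCL8, which encodes a neutrophil chemokine, was at 1.88, 17.9 and 57.4 CPM in PANC-1 with RBM3 siRNA, 18.2, 1.94 and 2.49 CPM in PANC-1 with control siRNA and 58.0 to 111 CPM in MIA PaCa-2. As for EREG, RBM3 siRNA replicate 3 was the highest PANC-1 library, and control replicate 1 and RBM3 siRNA replicate 2 came next. It lies on the same chromosome, with its start 625 kb before that of EREG.

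Leaving out PANC-1 RBM3 siRNA replicate 3, over 11 libraries, CXCL8 remained the nearest to EREG at 0.26, followed by ITGB8 at 0.30 and FGF5 at 0.34. SERPINB8, a serine protease inhibitor, remained the nearest to AREG at 0.11, and TRAF1, LIF and NABP1 were nearest to BTC at 0.21 to 0.23. CALD1, DDR2, FERMT1 and CFAP299 were then no longer among the nearest. BTC had only 1 to 15 counts in each of the PANC-1 libraries left, so its nearest genes are uncertain. The members and the 12095 genes compared were those chosen with replicate 3 included.

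Other genes of the pathway, 79 in 5 lists of which 71 were tested, also differed between the lines. Under control siRNA, 24 of 71 were called higher in PANC-1 and 17 lower by edgeR, beside the 26% and 24.8% of all genes, and their median log2 fold change was 0.08. Of the 6 remaining receptors and ligands, ERBB4 and NRG2 were tested. NRG2, a neuregulin, averaged 29.7 ± 5.27 CPM in PANC-1 controls and 0.189 ± 0.104 CPM in MIA PaCa-2 controls (SD, n = 3 each), a log2 fold change of 7.07 (SE 0.48, edgeR adjusted p = 3.61e-07). PANC-1 thus had more mRNA of both NRG1 and NRG2. EGF, EPGN, NRG3 and NRG4 did not pass the filter on low counts.

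Among 10 tested genes of ligand shedding, 4 were higher and 3 lower. RECK, a membrane-anchored inhibitor of metalloproteinases, averaged 26.8 ± 6.53 CPM in PANC-1 controls and 0.0595 ± 0.0663 CPM in MIA PaCa-2 controls. The proteases ADAM19 and RHBDL2 were also higher, with log2 fold changes of 3.69 (SE 0.46, edgeR adjusted p = 5.69e-05) and 2.31 (SE 0.35, adjusted p = 0.000216), and ADAM15 was lower at -1.60 (SE 0.33, adjusted p = 0.00185). Among 17 adaptors and first signalling steps, 2 were higher and 6 lower: PIK3R1 and GAB2 were higher by 2.23 (SE 0.38) and 1.70 (SE 0.45), and SRC and SOS2 were among the lower ones, at -1.36 (SE 0.22) and -0.75 (SE 0.18).

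Among 23 negative regulators and turnover genes, 10 were higher and 4 lower. LRIG3, of the LRIG membrane proteins that include repressors of ERBB receptors, averaged 11.7 ± 1.83 CPM in PANC-1 controls and 0.00793 ± 0.0137 CPM, a single count, in MIA PaCa-2 controls. PTPRK, a receptor phosphatase reported to act on EGFR, averaged 112 ± 10.9 CPM in PANC-1 controls and 0.583 ± 0.570 CPM in MIA PaCa-2 controls. SPRY2 and SPRY1, inhibitors of receptor tyrosine kinase signalling, were lower in PANC-1 with log2 fold changes of -1.69 (SE 0.41, edgeR adjusted p = 0.00460) and -1.29 (SE 0.18, adjusted p = 0.000151). Among 19 induced genes, 7 were higher and 4 lower. DUSP6, the ERK phosphatase, averaged 128 ± 39.3 CPM in PANC-1 controls and 2.29 ± 2.51 CPM in MIA PaCa-2 controls, IER3 and DUSP5 were higher by 3.37 (SE 0.22) and 2.73 (SE 0.63), and PLAUR, the urokinase receptor, was lower at -3.12 (SE 0.61). All 17 genes named by rule for this comparison kept their call on leaving out any 1 library.

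Under RBM3 siRNA the same lists had 23 higher and 14 lower of 71, beside 24.2% and 19.3% of all genes, and a median log2 fold change of 0.34. Without PANC-1 RBM3 siRNA replicate 3 they had 28 higher and 15 lower of 72. The genes named by rule were those above, except that CBLB, a ubiquitin ligase, at 3.42 (SE 0.48, edgeR adjusted p = 0.000159), and SOCS3, a feedback inhibitor of cytokine signalling, at 1.52 (SE 0.23, adjusted p = 0.000257), took the place of SPRY2 and SPRY1. ADAM15 at -0.97 (SE 0.33, adjusted p = 0.0302) and SOS2 at -0.58 (SE 0.18, adjusted p = 0.0207) each lost the call on leaving out PANC-1 RBM3 siRNA replicate 1 or 2 or MIA PaCa-2 RBM3 siRNA replicate 2, and also without MIA PaCa-2 RBM3 siRNA replicate 5 for ADAM15 and replicate 1 for SOS2, with adjusted p-values up to 0.142 and 0.0848.

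RBM3 siRNA left the 71 pathway genes without a call in either line, by edgeR. In MIA PaCa-2 the adaptors SHC1, at -0.34 (SE 0.13), and STAT3, at -0.33 (SE 0.14) on the log2 scale, came nearest to the threshold. In PANC-1 those nearest were SPRY1, at 0.38 (SE 0.18), and ETV5, a transcription factor downstream of ERK, at 0.38 (SE 0.18). DUSP6 averaged 1.22 ± 0.656 CPM in RBM3 siRNA libraries of MIA PaCa-2 and 2.29 ± 2.51 CPM in their controls, and SPRY4 had a log2 fold change of 0.67 (SE 0.44) in PANC-1.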

How the data were processed

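Raw read counts per Ensembl gene, in 1 table of all 12 libraries, are the deposited values. Per the submitters' processing notes, they were made with STAR 2.5.2a, Picard, featureCounts and Subread on build hg19/GRCh37. The sources used here do not give the strand setting, the annotation release or how duplicate reads were treated. The libraries were paired-end, of 75 bp reads, from a TruSeq kit, per the labels' protocols; the labels name both total and cytoplasmic RNA.

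From these counts, differential expression was computed with edgeR 4.0.16 in R 4.3.3 (TMM, filterByExpr with a minimum count of 10, which left 17862 genes, 1 model of 4 group means over 12 libraries with 8 residual degrees of freedom, two-sided quasi-likelihood F-test, Benjamini-Hochberg adjustment over all genes at 0.05). The SE is approximate: the size of the log2 fold change over the square root of F. The script was checked on simulated counts. Alternatives were DESeq2 1.42.0, limma-voom (limma 3.58.1), other scalings and filters, the compared groups alone, the replicate number as a block, a term for the PANC-1 pair, and each library left out in turn. Leaving out PANC-1 RBM3 siRNA replicate 3 together with the pair term, replicates 2 and 3 together, or replicate 3 from the search for like patterns was added after seeing the data.

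The members and lists were chosen with earlier results of these data known. All members were named. Of each pathway list the rule named up to 4 called genes with the largest absolute log2 fold change at 10 CPM or more in each line comparison, and the 2 with the smallest p in each siRNA comparison, of which the text gives some. Symbols came from a gene name table that matched 52181 of 63677 identifiers, and coordinates and exon lengths from a GENCODE annotation of GRCh38, unlike the build of the counts. Within groups, no library was a copy of another (chi-square per degree of freedom of the counts between 11.7 and 184).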

Additional observations from a re-analysis of the deposited data

How the results depend on the processing

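The calls between the lines under control siRNA changed little: 2 members were called higher and 6 lower in every fit that left out 1 library, and in the other fits too, except that DESeq2 called 5 lower, with no adjusted p for BTC, and that TGFA was not tested under a filter of 1 CPM in 6 libraries, which left 1 member called higher under control siRNA and 1 under RBM3 siRNA. Under RBM3 siRNA, members called lower numbered 5 with limma-voom, with no filter, and with PANC-1 RBM3 siRNA replicates 2 and 3 left out, and 1 to 5 on leaving out 1 library (5 without PANC-1 RBM3 siRNA replicate 3, 1 without replicate 1). In that comparison the 2 groups alone gave 1949 genes and 8 pathway genes called lower, against 3451 and 14, and 2 members, AREG being lost (adjusted p = 0.0585); leaving out 1 library gave 1788 to 4405 genes and 7 to 15 pathway genes lower, and 18 to 28 pathway genes higher. The pair had 3 members above and 2 below under other scalings, and 7 and 3 without PANC-1 RBM3 siRNA replicate 3.

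For RBM3 siRNA in MIA PaCa-2, genes called higher numbered 1 with edgeR, 8 with DESeq2 and 0 with limma-voom, median-of-ratios size factors, a filter of 1 CPM, the replicate block or the groups alone; genes called lower numbered 1, 9 with DESeq2, 2 with no filter and with the groups alone, and 0 with median-of-ratios size factors, a filter of 1 CPM or the block. On leaving out 1 library they numbered 0 to 1 and 0 to 2. RBM3 itself was at -2.36 (adjusted p = 0.0543), -2.35 (0.0505) and -2.65 (0.252) with median-of-ratios size factors, a filter of 1 CPM and the replicate block, and between -2.59 and -2.20 without 1 library. In PANC-1, genes called higher numbered 2 with DESeq2 and 229 with no filter, of which 1 is a member, BTC, and genes called lower 1 with DESeq2, with no filter and with the pair term, with or without PANC-1 RBM3 siRNA replicate 3, and 0 to 1 without 1 library. RBM3 passed in those fits, at -1.95 (adjusted p = 1.51e-05), -1.91 (9.03e-06), -2.02 (0.0130) and -1.91 (0.0466), and was between -2.42 and -1.72 without 1 library. For the difference of the responses, DESeq2 called 2 genes higher and 1 lower, and no filter 103 and 4; RBM3 was between -0.06 and 0.66 without 1 library. The cause of these shifts was not tested.

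Same-numbered libraries did not deviate together (correlations of 0.014 and -0.046 in MIA PaCa-2 and -0.402 and -0.326 in PANC-1). The deviations were taken within groups of 3 libraries, so these values cannot exclude pairing by number, and the main model assumed none. With the replicate block 4 members were called lower between the lines under RBM3 siRNA. Among single members, 994 values kept their side of the threshold, 9 lost a call and 11 gained one. No called value changed direction, but some values without a call in the main fit and in the alternative did. HBEGF between the lines under control siRNA, at 0.35 and at -1.56 without PANC-1 control replicate 1, is an example. TGFA in both lines and BTC in PANC-1 rest on few counts, and AREG reads may be shared with a near-identical copy.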
